A study of Mus musculus with 72 samples.

Results

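Brd3 was mapped in mouse embryonic fibroblasts (MEFs) by chromatin immunoprecipitation and sequencing (ChIP-seq), in cells with both Hmgn1 and Hmgn2 intact (WT, Hmgn1+/+ n2+/+) and in cells without either gene (DKO, Hmgn1-/- n2-/-). The MEFs of both genotypes came from mice of the C57BL/6 strain, each genotype has 2 biological replicates, and the DKO cells carry the deletion of both genes throughout. The 4 deposited Brd3 peak lists hold 84995 peaks, of 1156918 peaks in the 64 lists of the series. They were chosen by their labels alone, as the 4 MEF lists made with the Brd3 antibody. Peaks that shared at least 1 bp were merged into 39745 sites, and a site was named by the libraries that called it. A WT-only site was listed by each WT library and by neither DKO library, an all-4 site in every library, and a DKO-only site was listed by each DKO library and by neither WT library. A site no more than 1000 bp from a protein-coding transcript start was a promoter site and any other a distal site. The question was at which genes Brd3 peaks were absent from the DKO lists and at which they were found in both genotypes.

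Brd3 belongs to the BET family of proteins, whose paired bromodomains bind acetylated lysines on histone tails and thereby hold transcription factors and elongation complexes at active promoters and enhancers. The acetyltransferase p300 writes one such mark, acetylation of lysine 27 of histone H3 (H3K27ac). HMGN1 and HMGN2 are small high mobility group proteins that attach to the nucleosome core particle and compete with linker histone for chromatin.

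The strongest site of each pattern is shown with the mm9 reference sequence of its plus strand, 100 bp on either side of the summit, in order to show what kind of DNA lies under a Brd3 peak. Capitals mark CpG dinucleotides.

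The WT-only promoter site of Tmf1, which codes for a Golgi protein, lay at chr6:97129153-97129932 just outside the gene, 35 bp from the start. The all-4 promoter site of Cog4, a subunit of a Golgi tethering complex, lay at chr8:113369633-113371290 with its summit in a UTR of Cog4. The WT-only distal site nearest to Mex3b, a gene for an RNA-binding protein, lay between genes at chr7:90071962-90072391. The all-4 distal site nearest to Myo1g, a gene for an unconventional myosin, lay between genes at chr11:6427256-6428850, at a distance of 6295 bp from the start.

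The windows read as follows.
Tmf1, WT-only promoter site, chr6:97129230-97129430: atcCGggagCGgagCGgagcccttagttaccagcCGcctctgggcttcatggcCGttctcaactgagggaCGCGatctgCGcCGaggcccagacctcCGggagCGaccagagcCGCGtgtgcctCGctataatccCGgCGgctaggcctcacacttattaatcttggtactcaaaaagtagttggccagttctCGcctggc
Cog4, all-4 promoter site, chr8:113370470-113370670: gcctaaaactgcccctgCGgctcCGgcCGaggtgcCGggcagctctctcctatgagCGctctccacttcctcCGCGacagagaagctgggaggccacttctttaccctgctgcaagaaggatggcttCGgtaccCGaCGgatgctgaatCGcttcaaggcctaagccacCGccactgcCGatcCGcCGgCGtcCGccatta
Mex3b, WT-only distal site, chr7:90072116-90072316: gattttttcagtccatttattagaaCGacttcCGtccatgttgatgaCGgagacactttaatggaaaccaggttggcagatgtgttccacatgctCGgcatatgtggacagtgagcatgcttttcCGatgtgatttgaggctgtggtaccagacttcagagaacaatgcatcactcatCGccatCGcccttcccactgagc
Myo1g, all-4 distal site, chr11:6428518-6428718: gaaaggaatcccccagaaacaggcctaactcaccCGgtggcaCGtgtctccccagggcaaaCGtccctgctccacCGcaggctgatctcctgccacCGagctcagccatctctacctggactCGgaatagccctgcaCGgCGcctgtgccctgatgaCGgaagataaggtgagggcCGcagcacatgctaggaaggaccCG

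The 2 promoter windows held 17 CpG each, the window near Myo1g 11 and the window near Mex3b 7. The GC content was 61.2% at Tmf1, 63.2% at Cog4, 47.3% at the Mex3b site and 62.2% at the Myo1g site.

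At Tmf1 the fold enrichment of Brd3 over local background, as MACS2 gives it at the summit, was 13.9 and 13.6 in the WT replicates, and neither DKO library listed a peak. Those values correspond to 51 and 50 stacked reads over backgrounds of 2.73 and 2.75. The lowest fold enrichment in the lists was 2.72 in DKO replicate 1 and 2.61 in DKO replicate 2, so an unlisted site may still hold a weaker signal, and no fold change is given for it. At Cog4 the fold enrichment was 46.4 and 40.2 in WT against 33.3 and 31.0 in DKO replicates, so that both DKO values were below both WT values. At the Mex3b site it was 13.1 and 14.2 in the WT replicates. At the Myo1g site it was 32.7 and 32.0 in WT against 15.4 and 18.98 in DKO cells, again without overlap.

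**Figure D1:**
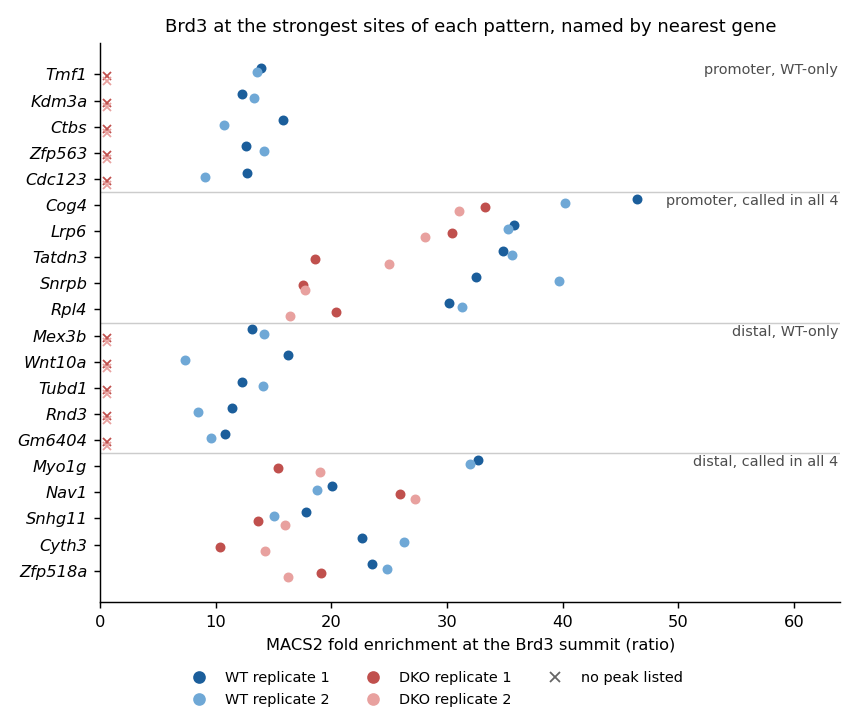
Fold enrichment (horizontal axis, ratio) of Brd3 in each of the 4 libraries (points) at the 5 strongest WT-only and the 5 strongest all-4 sites, for promoter and distal sites, with crosses where a library lists no peak. The WT-only sites lie between 7.30 and 16.3 in the WT libraries, and most all-4 sites lie above that range in WT cells.

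The other strong WT-only promoters were those of Kdm3a, a histone H3 lysine 9 demethylase (fold enrichment 12.3 and 13.3 in the WT replicates), Ctbs, a lysosomal glycosidase (15.8 and 10.7), the zinc finger gene Zfp563 (12.6 and 14.1), and Cdc123, an assembly factor for translation initiation (12.7 and 9.10). The summit at Cdc123 lies in a UTR of the neighbouring gene Nudt5. Each of these 5 promoters had an H3K27ac peak in all 4 H3K27ac libraries. The H3K27ac fold enrichment at Tmf1 was 22.6 and 26.5 in WT against 29.8 and 29.3 in DKO cells, which differed by 0.27 on the log2 scale (standard error, SE, 0.16; limma adjusted p = 0.302). At Kdm3a it was 43.2 and 40.5 in WT against 33.4 and 33.1 in DKO cells, and this difference did not pass the threshold either (adjusted p = 0.124 from limma). At Ctbs it was 20.1 and 14.7 in WT against 11.4 and 11.8 in DKO cells, without overlap but also short of the threshold (log2 change −0.57, adjusted p = 0.0882 from limma).

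Among the all-4 promoters, Lrp6, a Wnt co-receptor, had a Brd3 fold enrichment of 35.8 and 35.3 in WT against 30.4 and 28.1 in DKO replicates. Snrpb, a core protein of the spliceosome, had 32.5 and 39.7 against 17.5 and 17.7, and Rpl4, a protein of the large ribosomal subunit, 30.1 and 31.3 against 20.4 and 16.4. Tatdn3 completed the 5, with 34.8 and 35.6 against 18.6 and 25.02. At each of these promoters both DKO values lay below both WT values.

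The distal sites were less alike. The WT-only site 16492 bp from Wnt10a, a Wnt ligand gene, had a fold enrichment of 16.3 and 7.30 in the WT replicates, so the replicates themselves differed by more than 2 times. The sites nearest to Tubd1 (12.3 and 14.1), to Rnd3, a gene for a small GTP-binding protein that opposes contractility (11.4 and 8.47), and to Gm6404 (10.8 and 9.60) were the remaining strong WT-only distal sites. The Rnd3 site had p300 and H3K27ac peaks in every library of both genotypes. The Gm6404 site had none of either. The Mex3b site carried an H3K27ac peak in each DKO library but in no WT library. Of the all-4 distal sites, that in an intron of Nav1, a gene of neuronal navigation, went the other way, with a fold enrichment of 20.01 and 18.7 in WT against 26.0 and 27.2 in DKO cells. The stacked reads at its summit were fewer in DKO cells (75 and 91, against 142 and 160), and the local background fell further, from 6.15 and 7.59 to 1.93 and 2.38. The series lists a single MEF input library per genotype, so such a change in background cannot be told apart from a difference between inputs. The other strong all-4 distal sites lay near Snhg11, Cyth3 and Zfp518a, where the WT values were 17.8 and 14.99, 22.6 and 26.3, and 23.5 and 24.8. The corresponding DKO values were 13.7 and 16.01, 10.4 and 14.2, and 19.1 and 16.3, and only those near Snhg11 overlapped the WT values.

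The WT lists held 31404 and 33072 peaks and the DKO lists 8970 and 11549. The files hold no read totals. The lowest local background, a measure of depth in reads per position, was 1.75 and 1.89 in the WT against 1.24 and 1.54 in the DKO libraries, and both DKO values were below both WT values. The part of this difference in depth in the results was not tested except where values at a common depth are given. The lowest −log10 q listed was 2.0 to 2.1, so a site just outside the lists differs from one just inside only by that threshold. Where a bulk ChIP-seq list lacks a peak, fewer occupied cells and weaker occupancy in each cell cannot be told apart. Hmgn2 had 2 and 1 Brd3 peaks in WT and 0 in each DKO library, and Hmgn1 had 2 in each library except DKO replicate 2, which had 1. Peaks around a gene do not show whether the gene is deleted. Brd3 was found in both WT libraries at the promoters of 10 of 10 fibroblast markers, against 8563 of all 22219 protein-coding genes. Of these 10, 7 were all-4 (70%, against 44.4% of the 8563) and 0 were lost (against 28.1%). H3K27ac was found at 10 of 10 in both genotypes. Of 58 measured markers of pluripotent, B, neuronal, epithelial, endothelial and macrophage cells, 2 had a promoter site in both WT libraries. These were Flt1 and Vpreb1, and the site at Vpreb1 covers the start of the neighbouring Top3b.

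Of the 39745 sites, 10731 were WT-only, 5422 all-4 and 17 DKO-only. A further 4473 were called in both WT libraries and 1 DKO library, and 17640 in a single WT library. Replicates of one genotype were not identical. Of the sites called in WT replicate 1, 70.7% were called in WT replicate 2, and 23.7% and 30.4% in the DKO replicates. Of those called in DKO replicate 1, 75.4% were called in DKO replicate 2, but 94.5% and 94.2% in the WT replicates. WT-only sites were weaker and narrower than all-4 sites. Their median fold enrichment in WT cells was 5.06 and 5.01, against 8.46 and 8.27 at all-4 sites, and their median width 434 bp against 879.5 bp. Promoters made up 39.1% of the WT-only and 68.2% of the all-4 sites. With every library scaled to the lowest background, 8844 sites were WT-only. With an equal number of top peaks taken from each library, 1033 sites were WT-only and 410 DKO-only. Without WT replicate 1 or 2, a single WT list sufficed and the WT-only count was 22029 or 20481, and without DKO replicate 1 the all-4 count was 8571.

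How often a WT site was missing from the DKO lists depended on its strength in WT cells. Overall 52.0% of the 20626 sites called in both WT libraries were lost, that is, called in no DKO library. When these sites were ranked by mean WT −log10 p into 10 classes of equal size, 89.5% of the weakest class and 2.23% of the strongest were lost. At promoters the share fell from 84.7% (95% Wilson interval 81.4 to 87.5) in class 1 through 57.6% in class 5 to 1.99% (1.41 to 2.80) in class 10. At distal sites it fell from 91.2% (89.7 to 92.5) through 68.1% to 3.08% (1.84 to 5.10). The intervals cover counting error only, and sites are not independent replicates.

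**Figure D2:**
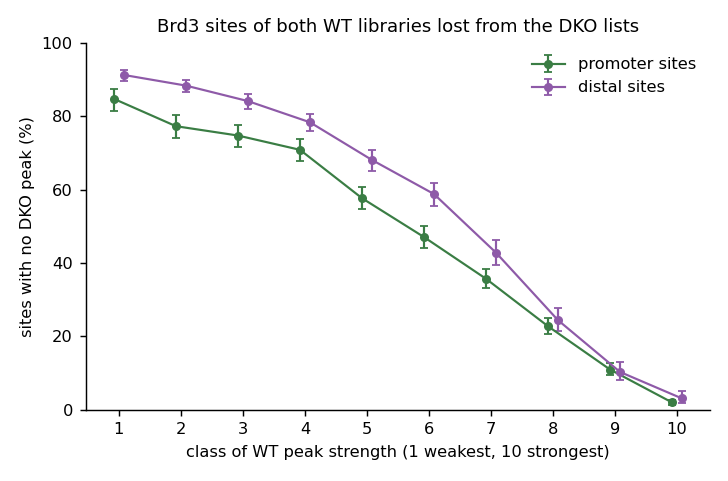
Share of Brd3 sites of both WT libraries that no DKO library called (vertical axis, percent), by class of WT peak strength (horizontal axis), for promoter (green) and distal (purple) sites with 95% Wilson intervals. Both curves fall steeply, distal sites lie higher in classes 1 to 7, and the curves meet from class 8.

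Distal sites were lost more often than promoter sites, 65.1% (64.1 to 66.0) of 10046 against 39.7% (38.7 to 40.6) of 10580. Promoter sites were stronger, with 15.2% of them in class 10 and 5.19% in class 1, against 4.53% and 15.1% of distal sites. Averaged over the 10 classes, so that both kinds have the same strengths, the shares lost were 54.9% at distal and 48.4% at promoter sites. Without DKO replicate 2 these means were 67.8% and 66.5%, and with equal numbers of top peaks 17.7% and 15.7%, so the gap at equal strength was then much smaller. In class 3 the shares were 84.1% and 74.7%, in class 6 58.8% and 47.0%, and in class 9 10.3% and 10.96%. With equal numbers of top peaks the overall shares were 20.6% and 14.6%. The loss was spread over the chromosomes, between 47.5% on chromosome 11 and 59.4% on chromosome X, leaving out chromosome Y with 4 sites.

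With 2 libraries against 2, an exact two-sided permutation test cannot go below p = 0.333. Tests were therefore made in models over many libraries or sites. Their p-values rest on a spread between replicates that limma shares over antibodies or sites. The number of Brd3 peaks changed by −1.66 on the log2 scale (SE 0.16, adjusted p = 0.00482 from limma over the 16 antibodies of the series). That change was set against those of the other MEF antibodies in one model of the 24 MEF libraries, H3K27me3 and H1 included. A common spread was pooled over all antibodies and over total, promoter and distal peaks, although the total contains both others. Every difference thus has the same SE of 0.37, which is not the spread of the Brd3 libraries alone. The distal peaks of Brd3 changed by −2.15 and those of p300 by −0.995, a difference of −1.15 (SE 0.37, adjusted p = 0.0103 from limma). Promoter peaks of Brd3 (−1.20) and p300 (−1.11) differed by −0.09, with a 95% interval from −0.83 to 0.66. Brd3 lost more peaks than H3K27ac at promoters (difference −1.09, adjusted p = 0.0118 from limma) and at distal sites (−2.003, adjusted p = 3.3e-05 from limma). From CEBPB, whose distal peaks changed by −1.50, no difference passed the threshold. That of the distal peaks was −0.65, with a 95% interval from −1.39 to 0.10. Of the 9 differences, 4 passed the threshold. Without WT replicate 2 the difference from p300 at distal sites was −0.88. That from H3K27ac at promoters was −1.09, −1.09 and −0.90 without WT replicate 1, WT replicate 2 and DKO replicate 1. The change of Brd3 itself was −1.70 without WT replicate 1 and −1.63 without WT replicate 2. None of these values passed the threshold in such fits, where a group holds 1 library and the spread comes from the remaining groups.

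Brd3 was also weaker at the sites that both genotypes shared. At the 5422 all-4 sites the median fold enrichment was 8.46 and 8.27 in the WT against 6.28 and 6.28 in the DKO replicates. The median log2 change was −0.39, it was negative at 4476 sites, and 1119 sites were lower in DKO cells (20.6%) and 21 higher (0.387%) at an adjusted p of at most 0.05 from limma. Promoters (median −0.40, 800 of 3697 lower) and distal sites (−0.37, 319 of 1725 lower) moved by similar amounts. Since a site had to pass the caller's threshold in every library, sites that became too weak are not among them. When each library was centred on its median, 36 sites were lower (0.664%) and 45 higher (0.83%); whether the shift common to all sites lies in occupancy or in the libraries cannot be told apart. With pileup over background in place of the MACS2 ratio, which adds a pseudocount and so depends on depth, the median change was −0.30 and 703 sites were lower and 48 higher. Without WT replicate 1, 725 were lower and 46 higher. Without DKO replicate 2, 617 were lower and 5 higher, and without DKO replicate 1, 6 were higher. Among these sites the shift was larger at stronger ones, but weak sites with a large fall would have left the DKO lists. The part of this selection in the trend was not tested. In 5 groups of equal size by mean log2 fold enrichment over the 4 libraries, the median change at promoters went from −0.13 in the weakest through −0.39 in the middle to −0.54 in the strongest group, and at distal sites from −0.20 through −0.46 to −0.58.

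**Figure D3:**
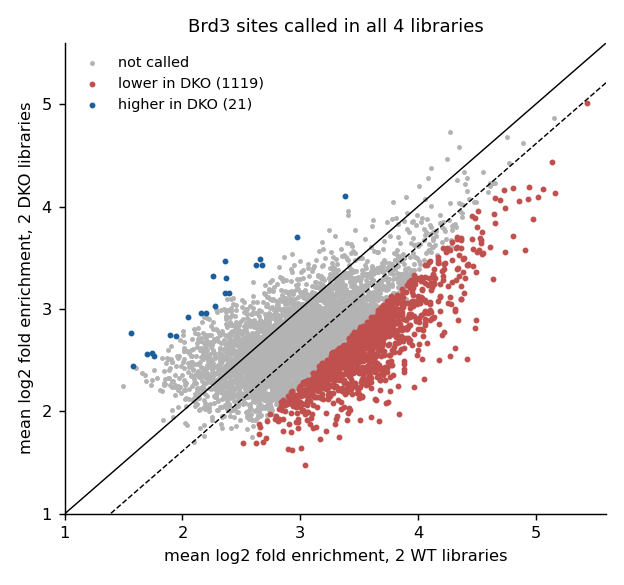
Mean log2 fold enrichment of the 2 DKO libraries (vertical axis) against that of the 2 WT libraries (horizontal axis) at the 5422 Brd3 sites called in all 4 libraries, with sites lower (red) or higher (blue) in DKO cells by limma, the line of equality (solid) and the median change of −0.39 (dashed). Most points lie below the line of equality, with 1119 red and 21 blue points, and the distance from it grows with strength. Sites that fell out of a DKO list are not drawn.

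The promoter with the largest fall was that of the zinc finger gene Zfp11, where the fold enrichment was 22.5 and 20.1 in WT against 4.86 and 6.68 in DKO cells. Its log2 change was −1.90 (SE 0.24, adjusted p = 0.00122 from limma), or −1.51 relative to the median of all sites. Smndc1, a splicing factor, went from 14.2 and 11.4 to 4.62 and 3.06, and Yars, the tyrosyl-tRNA synthetase, from 16.9 and 16.3 to 5.11 and 4.84. Psmd12, a subunit of the proteasome regulatory particle, went from 20.3 and 18.4 to 6.74 and 5.03, and Lamtor2, a lysosomal scaffold of mTORC1 signalling, from 14.3 and 17.0 to 4.62 and 4.804. Each of these 5 also passed the threshold with the libraries centred (adjusted p between 0.0125 and 0.0224 from limma).

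Among distal sites, the largest fall was at a site 64611 bp from A930002H24Rik on chromosome 17, from 13.5 and 15.2 to 3.66 and 4.24 (log2 change −1.87, adjusted p = 0.00122 from limma). A site 53643 bp from the start of Col1a1, the gene of the main fibrillar collagen chain of fibroblasts, went from 11.4 and 8.85 to 3.30 and 3.44 (log2 change −1.58, adjusted p = 0.00312 from limma). At the all-4 promoter site of Col1a1 itself the values were 5.10 and 6.43 in WT against 6.61 and 6.23 in DKO cells, a difference of 0.16 on the log2 scale that did not pass the threshold (limma adjusted p = 0.665). Sites near Ier5, Tmem44 and Cwc27 were the next, with log2 changes of −1.57, −1.51 and −1.39, and that near Cwc27 no longer passed with the libraries centred (adjusted p = 0.0658 from limma).

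Rises were few, and the 13 at promoters were spread over the 5 groups of strength (2, 3, 4, 2 and 2 from weakest to strongest), whereas of the 8 at distal sites 6 were in the weakest group. Bnip3, a mitophagy receptor, had a promoter fold enrichment of 4.757 and 4.798 in WT against 9.13 and 10.9 in DKO cells (log2 change 1.06, SE 0.25, adjusted p = 0.0112 from limma). Slc7a1, a transporter of cationic amino acids, had 6.599 and 3.995 against 10.6 and 11.7, and Ppp2r5b, a regulatory subunit of protein phosphatase 2A, 2.94 and 2.97 against 8.10 and 5.71. Serpinf1, a secreted inhibitor of angiogenesis, and Phkg2, a phosphorylase kinase subunit, changed by 0.93 and 0.80. Among the distal sites that rose most, those near G430095P16Rik, Gm7292, Sertad2 and Gm6327 changed by 0.83 to 0.87, each from a fold enrichment of at most 4.67 in WT cells to at least 5.72 in DKO cells. At these 9 sites both DKO values were above both WT values.

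Of 22219 protein-coding genes, 8563 had a promoter site called in both WT libraries. Brd3 was kept, with an all-4 site, at 3805 of them (44.4%) and lost, with no promoter site in either DKO library, at 2408 (28.1%). The other 2350 had a site in 1 DKO library or at another position. Without DKO replicate 2 the lost genes numbered 4028, and with equal numbers of top peaks 514. Values given for a gene on a list are the highest among its promoter sites in each library, and a site between neighbouring starts counts for each gene. Gene lists are described by these counts beside the shares over all genes, and by the median of the mean WT −log10 q of their promoters, which was 16.02 over the 8563 genes.

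Among the lists with more than 1 bound gene, ribosomal protein and proteasome genes had the highest median −log10 q. Of 72 ribosomal protein genes bound in both WT libraries, 64 were kept and 3 lost, and their median −log10 q was 68.4. Of the 64, both DKO values lay below both WT values at 46 and above them at 4, and over all 3805 kept genes the shares were 62.2% and 4.7%. Rpl26 had a fold enrichment of 29.6 and 33.5 in WT against 14.1 and 15.4 in DKO cells, and Rpl7 29.1 and 32.3 against 16.7 and 16.9. Among the lost members were Rplp0 (6.70 and 9.67 in WT cells) and Rpl13a (3.63 and 3.78). Rpl21, named after its values were seen, was among the 4 that lay higher in DKO cells (8.82 and 10.2 in WT against 13.8 and 13.4 in DKO cells). Of 32 proteasome genes 24 were kept, among them Psmc2 (14.3 and 17.9 against 6.38 and 7.68), and 3 were lost, namely Psmd9, Psmc3 and Psmb6, at a median −log10 q of 26.6. Both DKO values lay below both WT values at 13 of the 24 and above them at 2, Psmc6 and Psma2, also named after their values were seen. Psmc6 had 11.4 and 9.55 in WT against 19.8 and 14.9 in DKO cells, and Psma2 7.72 and 7.26 against 11.4 and 10.2.

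**Figure D4:**
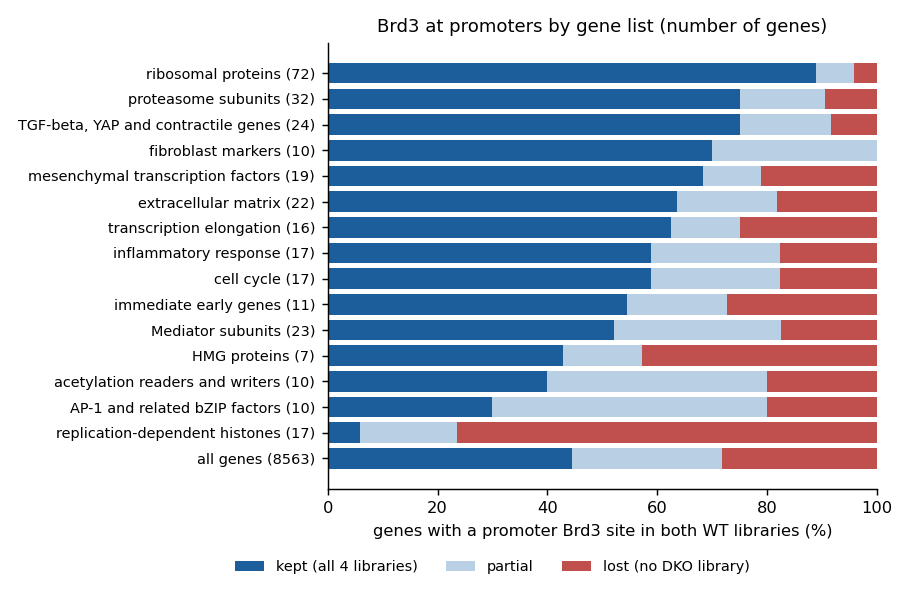
Share of genes (horizontal axis, percent) whose promoter Brd3 was kept in all 4 libraries (dark blue), partly kept (light blue) or lost from both DKO libraries (red), among genes with a promoter site in both WT libraries, by list, with the number of genes in brackets. Ribosomal protein genes stand at the top with 64 of 72 kept, and replication-dependent histone genes near the bottom with 1 of 17 kept.

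Of genes of TGF-beta and YAP signalling and contraction, 18 of 24 were kept (75%) and 2 lost, of mesenchymal transcription factors 13 of 19 (68.4%) and 4, and of extracellular matrix genes 14 of 22 (63.6%) and 4, beside 44.4% kept over all genes and 75% of the proteasome genes. Cnn2, an actin-binding calponin, had 13.4 and 15.9 in WT against 9.86 and 6.66 in DKO cells, and Amotl2, a YAP target and regulator, 12.3 and 14.0 against 6.08 and 7.78. Tgfbr2, the type II TGF-beta receptor, was kept (15.04 and 10.03 against 6.42 and 5.87), while the ligand gene Tgfb1 (6.06 and 5.62) and Tead4, a DNA-binding partner of YAP (5.30 and 4.44), were lost. The list's median −log10 q was 22.4. Among the kept mesenchymal factors were Prrx1 at 13.0 and 14.3 against 10.5 and 10.1 and Runx1 at 10.7 and 11.9 against 10.5 and 7.65. Nfix, Prrx2, Osr1 and Foxf1a were lost, from WT values of 4.64 to 6.70. The kept matrix genes included Thbs1 (15.9 and 14.8 against 8.50 and 11.2), Lox, which cross-links collagen (12.4 and 15.9 against 8.50 and 8.60), and the fibrillin gene Fbn1. Timp1, Timp3, Col6a1 and Mmp2 were lost.

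Of 11 immediate early genes 6 were kept (54.5%, against 44.4% of all genes) and 3 lost (27.3%, against 28.1%). Mcl1, an anti-apoptotic gene, had 15.8 and 20.9 in WT against 6.12 and 10.2 in DKO cells. Zfp36, whose product destabilizes inflammatory mRNAs, had 10.7 and 10.3 in WT cells and no DKO peak. Among inflammatory genes 10 of 17 were kept, including Rela and Nfkb1, subunits of NF-kB, with 12.2 and 10.2 against 7.63 and 9.01 at Rela and overlapping values of 9.82 and 10.9 against 10.6 and 9.95 at Nfkb1. Of these 10, both DKO values lay below both WT values at 4 and above them at 1, Relb, which was named after its values were seen. Socs3, the feedback inhibitor of cytokine signalling, was lost from 8.84 and 7.89, and so were the chemokine genes Ccl2 and Cxcl1. In the AP-1 and bZIP list, 3 of 10 were kept (Fosl2, Jun and Jdp2), 2 lost (Mafk and Maff) and 5 partly kept, at a median −log10 q of 9.91.

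For genes that act with BET proteins the shares, beside 44.4% kept and 28.1% lost over all genes, were 40% kept and 20% lost among readers and writers of acetylation, 52.2% and 17.4% among Mediator genes, and 62.5% and 25% among elongation genes. Of 10 readers and writers of acetylation, 4 were kept, namely Brd2 (16.1 and 14.6 against 12.6 and 10.3), Brd8, Ep300, which codes for p300 (11.4 and 9.95 against 8.15 and 8.11), and Hdac1. Brd3 itself (5.17 and 7.24 in WT cells) and the acetyltransferase gene Kat2a were lost. Of 16 elongation genes 10 were kept, among them Hexim1, the inhibitor of P-TEFb (10.8 and 8.91 against 8.24 and 5.07), and Ccnt2, a cyclin of P-TEFb. Supt16h, Larp7, Ell2 and Leo1 were lost. Of 23 Mediator genes 12 were kept, among them Med28 (14.4 and 16.7 against 10.6 and 12.9). The strongest site on this list, at Med22 (25.01 and 25.3 against 16.2 and 17.7), is also the promoter site of the ribosomal protein gene Rpl7a. The Mediator genes Med9, Med18, Med25 and Med26 were lost. Of 17 cell cycle genes 10 were kept, including Cdk4 (14.98 and 13.3 against 7.13 and 8.22), and Cdk2, Mcm2 and Mcm3 were lost.

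Replication-dependent histone genes stood at the other end, with 13 of 17 lost (76.5%, against 28.1% over all genes). Hist1h2ab alone was kept (5.88%, against 44.4%), and the median −log10 q was 7.41. Of the 66 genes measured, 29 had no promoter site and 20 had none called in both WT libraries. Hist1h2bb had 7.96 and 7.68 in WT cells and no DKO peak, and the linker histone gene Hist1h1b 4.82 and 7.99. At a −log10 p of at least 10 the lost histone genes numbered 2, and without WT replicate 1 or 2 they numbered 26 or 22. Histone genes are near-identical copies within clusters, so reads may be shared among them. Neighbouring members also share sites, as do Hist1h2ag, Hist1h2bj and Hist1h4i among the lost genes and Hist2h2ac and Hist2h2be among those partly kept, so the genes counted are more than the sites behind them. Of 7 HMG genes 3 were kept, Hmga2, Hmga1 and Hmgn1, which is 42.9% and close to the 44.4% over all genes. Another 3 were lost (42.9%, against 28.1%), Hmgb1 (7.22 and 7.99), Hmgb2 (8.43 and 9.42) and Hmgn2 (5.19 and 5.80). The share lost over all sites fell with strength, and the part of strength in a list's share was not tested. The median −log10 q of the lists not yet given was 22.3 for acetylation, 18.8 for mesenchymal factors, 17.6 for immediate early genes, 17.4 for elongation and for Mediator, 16.6 for matrix, 16.3 for HMG, 16.1 for cell cycle and 13.9 for inflammatory genes.

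Distal sites were assigned to the nearest gene within 50 kb. Of 6342 such sites in both WT libraries, 4059 were lost (64%). Cald1, which codes for the actin-binding protein caldesmon, had the most WT-only distal sites, 15 of its 18, and 3 all-4 sites. Phldb2, a cortical protein of cell adhesion, had 13 of 17 lost and 0 all-4 sites, 2010111I01Rik 12 of 15, 2610203C20Rik 11 of 19 and Actn4, an actin cross-linker, 11 of 17. The most all-4 distal sites were at Amotl2, with 7 beside 10 lost of 21, followed by 1700019E19Rik, Adamts6, a secreted metalloproteinase, Igfbp7, an insulin-like growth factor binding protein, and Irf2bp2, a transcriptional corepressor, with 6 each. Cald1, Phldb2, Amotl2, Adamts6 and Irf2bp2 kept an all-4 site at the promoter, whereas Igfbp7 lost its promoter site. Of 816 genes with a kept promoter and a distal site in both WT libraries, 376 (46.1%) had lost every one of those distal sites. For genes with a lost promoter it was 215 of 407 (52.8%), and for genes without a promoter site 528 of 904 (58.4%). Counted by site, 1456 of 2376 distal sites of genes with a kept promoter were lost (61.3%), 532 of 846 of those with a lost promoter (62.9%) and 1017 of 1540 of those without a promoter site (66.0%), all close to the 64% over all such sites. Among the lists, 56 of 114 distal sites of the TGF-beta, YAP and contractile genes were lost, 63 of 107 of the matrix genes, 54 of 79 of the mesenchymal factors and 34 of 50 of the immediate early genes.

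H3K27ac, a readout not used to choose the sites, was present at most WT-only sites in DKO cells too. At WT-only promoters 96.2% had an H3K27ac peak in both WT and 95.6% in both DKO libraries. At WT-only distal sites the shares were 90.8% and 90.0%, and at all-4 distal sites 97.7% and 98.4%. Over all distal Brd3 sites they were 79.3% and 78.9%. In the strongest 5 classes of WT-only distal sites the share in both DKO libraries lay between 85.7% and 93.7%.

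The level of H3K27ac was compared at the 42234 H3K27ac sites called in all 4 H3K27ac libraries. A site without an H3K27ac peak in a DKO library is not among them. The H3K27ac lists held 84850 and 84760 peaks in WT against 76968 and 77614 in DKO cells. The median log2 change of H3K27ac fold enrichment was −0.08 over all of them. It was −0.09 where the site overlapped a WT-only but no all-4 Brd3 site, −0.07 at all-4 Brd3 sites and −0.08 where no Brd3 site was found. Of all sites, 5.6% were lower and 2.79% higher in DKO cells at an adjusted p of at most 0.05 from limma. At the 7965 sites with WT-only Brd3 the shares were 6.72% and 2.84%, at the 5329 with all-4 Brd3 7.98% and 4.47%, and at the 18460 without Brd3 3.97% and 2.13%. The median H3K27ac fold enrichment at sites with WT-only Brd3 was 11.1 and 10.8 in WT against 10.3 and 10.1 in DKO cells, below that at all-4 Brd3 (18.8 and 18.3 against 17.6 and 17.4) and above that without Brd3 (6.14 and 6.13 against 5.86 and 5.81). The order was the same in each of the 4 libraries. At distal sites with all-4 Brd3 the median change was −0.00, with 71 sites lower and 92 higher, and 48 and 135 with the libraries centred. With the libraries centred, 3.62% of all sites were lower and 3.89% higher, at sites with WT-only Brd3 4.27% and 4.22%, and at sites with all-4 Brd3 5.54% and 6.40%, where the higher calls then outnumbered the lower ones. Without WT replicate 1, 1481 of all sites and 292 of those with WT-only Brd3 were lower. Without DKO replicate 1, 673, 108 and 137 sites (all, WT-only and all-4) were higher, and without DKO replicate 2, 705, 132 and 126.

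**Figure D5:**
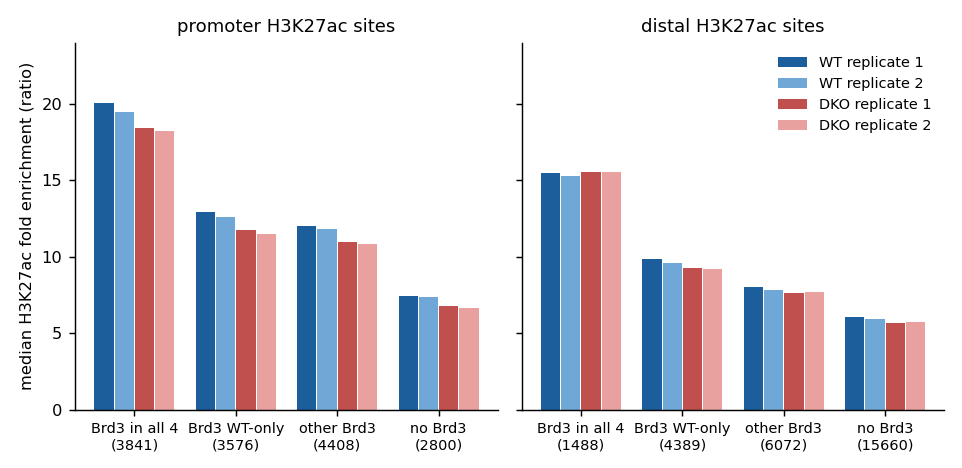
Median H3K27ac fold enrichment (vertical axis, ratio) in each H3K27ac library (bars) at promoter (left) and distal (right) H3K27ac sites, grouped by the Brd3 site they overlap, with the number of sites in brackets. The bars fall from sites with all-4 Brd3 through WT-only Brd3 to sites without Brd3 in both genotypes, and the 4 bars of a group differ little.

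p300 peaks overlapped the distal sites more often than the promoters. In both WT libraries p300 was called at 34.5% of all-4 and 11.8% of WT-only distal sites, against 1.65% and 0.48% of promoter sites. Over all distal sites the share was 9.10%. With equal numbers of top Brd3 peaks from each library the distal shares in WT were 39.98% and 30.7%, so that the gap was much smaller. In both DKO libraries the distal shares were 24% and 5.74%. All-4 distal sites are wider, with a median of 1082 bp against 451 bp, and the part of width in these overlaps was not tested. Within classes of strength the difference varied, and only in class 4 was the WT-only share the higher one. In class 1, with 18 all-4 sites, the shares were 22.2% of all-4 and 6.52% of WT-only distal sites. They were 11.1% and 12.7% in class 4, 31.2% and 18.5% in class 6, and 24.3% and 22.3% in class 7. In class 9 they were 38.9% and 28.1%, and in class 10, with 14 WT-only sites, 46.1% and 21.4%. The summits of the factors did not coincide. Among distal sites with a p300 peak in WT replicate 1, the nearest p300 summit lay a median of 332 bp from the Brd3 summit at all-4 and 238 bp at WT-only sites, and within 100 bp at 6.81% and 17.6%. The corresponding H3K27ac summit lay at a median of 121 bp and 147 bp. With the Brd3 summit required to lie inside the p300 peak, the shares were 1.86% at all-4 and 1.94% at WT-only distal sites. CEBPB, a bZIP factor, was called in both WT libraries at 15.6% of all-4 and 8.45% of WT-only distal sites. Over all distal sites the share was 6.78%. By class of strength the order changed, with 5.41% of all-4 and 7.53% of WT-only sites in class 3, 14.5% and 15.9% in class 8, and 22.8% and 14.3% in class 10. With the Brd3 summit required inside the CEBPB peak, the shares were 1.39% and 2.02%. H3K27me3 peaks, a mark of silent chromatin, overlapped at most 0.0207% of Brd3 sites, promoter or distal, in any library.

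The DNA under the summits differed mainly between promoters and distal sites. The median number of CpG in the same window was 15 at all-4 and 11 at WT-only promoters, and 3 and 2 at distal sites, against 2 in windows 5000 bp away. The median GC content was 63.7% and 59.7% at promoters and 51.7% and 48.3% at distal sites, against 44.8% at the distant windows of all sites. The number also varied with strength. WT-only promoters had a median of 8 CpG in class 1 and 14 in class 9, and all-4 promoters 14 in class 9.

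Motifs were searched on both strands in the same windows. GGGCGG, bound by SP and KLF factors, was found at 30.7% of all-4 and 27.2% of WT-only promoters and at 27.8% of all promoter sites, and at 9.16% and 5.26% of distal sites. By class of strength the distal shares were 5.05% of all-4 and 6.78% of WT-only sites in class 7, 9.03% and 6.82% in class 8, and 10.9% and 10.9% in class 9. TGANTCA, bound by AP-1, was found at 5.39% of all-4 and 8.97% of WT-only distal sites and at 8.87% of all distal sites, and at 5.94% of windows 5000 bp away from distal sites. Within classes of strength the order was not constant, with 3.90% of all-4 and 8.45% of WT-only distal sites in class 6, 8.26% and 6.78% in class 7, 5.16% and 6.25% in class 8, and 3.71% and 3.13% in class 9. CCAAT, bound by NF-Y, lay at 18.8% and 22.6% of distal sites, below its share of 26.2% in the windows 5000 bp away. GGAATG, bound by TEAD factors, was found at 13.7% of both kinds of distal site and at 11.05% of the distant windows. TTGCNNAA, bound by CEBP factors, and AGATAA, bound by the GATA family, lay at 6.90% and 7.48% of all-4 and 7.59% and 9.65% of WT-only distal sites, below the shares of distant windows (8.27% and 11.6%). CACGTG, CCGGAAGT and GCGCATGC were found at 4.35%, 0.64% and 0.17% of all-4 distal sites and at 4.17%, 2.14% and 0.62% of all-4 promoters. Of the sequences shown above, only that near Myo1g held any of these motifs, 1 match each to CACGTG and AGATAA. The matches are descriptions of letters, in windows whose GC content also differs, and they overlap with CpG in the case of GGGCGG and CACGTG.

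The 17 DKO-only sites comprised 6 promoter and 11 distal sites. The strongest, in an intron of Ccdc125, 267 bp from the start, had a fold enrichment of 8.85 and 5.22 in the DKO replicates. At Atrnl1, which codes for an attractin-like membrane protein, it was 7.41 and 6.46, with the summit in a UTR, and at Camk2d, a calcium- and calmodulin-dependent kinase gene, 6.77 and 6.61, in an intron 4599 bp from the start. Ccdc125 and Atrnl1 carried an H3K27ac peak in every library of both genotypes, and Camk2d in none. Mex3b and Foxk1, a forkhead factor, had DKO-only promoter sites with 6.57 and 5.48, and 5.62 and 5.48. Over the 17 sites the median was 5.90 and 5.22. Without any 1 library the count was between 65 (without WT replicate 2) and 432 (without DKO replicate 1), with 66 without WT replicate 1 and 256 without DKO replicate 2.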

How the data were processed

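ChIP-seq libraries of Brd3, H3K27ac, p300 and CEBPB from WT and DKO MEFs were used, 2 per genotype and antibody. Per the study's methods and the submitters' processing notes, the authors trimmed reads with cutadapt 1.16, aligned them to mm9 with BWA, removed duplicates and blacklisted regions, and called peaks per library against input with MACS2 2.1.1.20160309. With a single MEF input library listed per genotype, differences in background between genotypes cannot be told apart from differences between inputs. The deposited peak lists give at each summit the fold enrichment over local background, a ratio with a pseudocount, and −log10 p and q. Summit pileups solved from these columns came out whole for every Brd3 peak, within 0.0005 in −log10 p.

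Peaks were merged at 1 bp of overlap. Genes and starts came from the protein-coding GENCODE annotation of mm9. log2 fold enrichment at sites called in every library, and log2 peak numbers, were fitted with limma 3.58.1 (R 4.3.3), with Benjamini-Hochberg adjustment over all features and a threshold of 0.05, after tests on simulated data. Wilson intervals are at 95%. Named sites were the strongest of each pattern by mean −log10 q and the largest called changes in fold enrichment. That mean was taken over the WT libraries for WT-only sites, the DKO libraries for DKO-only sites and all 4 libraries for all-4 sites. Members and gene lists were chosen with earlier results of these data known. Replicate numbers showed no pairing site by site (correlation of deviations 0.000243 for Brd3 and 0.00635 for H3K27ac), a check that cannot see a shift common to all sites. Alternatives covered peak thresholds, a common depth, equal peak numbers, merging, windows, scaling and each library left out. With a library left out its group holds 1 library, and the spread behind any call then comes from the remaining groups. H3K27me3 and H1 lists of MEFs were used for overlaps and in the models of peak number. Lists of ES cells and B cells were used only in the peak number model over all antibodies. A few items that met the naming rule are not reported here.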

Additional observations from a re-analysis of the deposited data

How the results depend on the processing

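The lists hold no read totals and no values below the calling threshold, which limits every statement on absent peaks. WT-only sites numbered 5722 at a −log10 p of at least 10, 6714 with peaks within 1000 bp merged, 1033 with the same number of top peaks, and 12070 to 22029 without 1 library. All-4 sites numbered 3386 at a −log10 p of at least 10 and 5532 to 8571 without 1 library. DKO-only sites numbered 27 at a −log10 p of at least 10, 61 at a fold enrichment of at least 4, 28 at a common depth, 6 when merged, 410 with equal peak numbers and 65 to 432 without 1 library.

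The share of promoter sites lost was 38.5% at a fold enrichment of at least 4, 37.3% at a common depth, 30.4% when merged, 14.6% with equal peak numbers, 41.2% with a 2000 bp window and 46.7% to 58.2% without 1 library. Its mean over the classes was 44.1% at a −log10 p of at least 10, and 45.5%, 44.7%, 40.2% and 15.7% at a fold enrichment of at least 4, a common depth, merged and with equal peak numbers, 47.3% ranked by fold enrichment, and 55.1% to 66.5% without 1 library. For distal sites the share was 60.3% at a −log10 p of at least 10, then 61.6%, 61.2%, 61.8% and 20.6% in the same order, and 70.9% to 79.0% without 1 library. The distal mean over the classes was 52.2%, 51.8%, 51.3%, 48.5% and 17.7%, 55.8% ranked by fold enrichment, and 61.1% to 71.3% without 1 library. Without WT replicate 1 the means were 71.3% at distal and 61.4% at promoter sites, and without DKO replicate 2 67.8% and 66.5%. Lost gene promoters numbered 514 with equal peak numbers and 2981 to 4028 without 1 library.

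Without 1 library the log2 change of the Brd3 peak number was −1.85 to −1.48, and its difference from that of p300 was −1.42 to −0.88 at distal and −0.52 to 0.34 at promoter peaks. The difference from H3K27ac at promoters was −1.28 to −0.90. The difference from CEBPB over all peaks was 0.0158 at a fold enrichment of at least 4. With the replicate number as a block, the differences from p300 over all peaks (−0.66) and from CEBPB at distal peaks (−0.65) also passed the threshold (adjusted p = 0.0347 each, limma), and no other call of a difference changed. Site by site the replicate numbers showed no pairing, but replicate 2 had more Brd3 peaks than replicate 1 in both genotypes (33072 against 31404 in WT, 11549 against 8970 in DKO). Whether peak numbers were paired by replicate was not tested.

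At all-4 Brd3 sites, 36 were lower and 45 higher with libraries centred, which brings the median change to 0.0244 by construction, and 703 and 48 with pileup over background. Without 1 library, 617 to 840 were lower and 5 to 46 higher. For H3K27ac, centring left 1527 sites lower in all and 340 at WT-only Brd3. A constant prior variance gave 1464 lower and 711 higher in all, 288 and 110 at WT-only Brd3, and 155 and 72 at all-4 Brd3. Without 1 library, 1481 to 1793 were lower and 673 to 1101 higher in all, 292 to 381 and 108 to 213 at WT-only Brd3, and 126 to 220 were higher at all-4 Brd3.

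With the summit required inside the other peak, H3K27ac in both DKO libraries covered 81.9% of WT-only and 95.5% of all-4 distal sites, and p300 in both WT libraries 1.94% and 1.86%. With equal peak numbers the p300 shares were 30.7% and 39.98%, the AP-1 motif lay at 6.98% of WT-only distal sites and the SP/KLF motif at 31.6% of WT-only promoters. In windows of 50 bp on each side AP-1 lay at 3.98% of WT-only and 2.26% of all-4 distal sites, and SP/KLF at 13.9% and 15.7% of promoters. The cause of these differences was not tested.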
